A study of Mus musculus with 6 samples.

Results

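Genes of DNA replication and mitosis were compared between macrophage-marked cells out of tumours implanted in St2-/- mice and in wild type mice. The genes came from a list of 45 symbols, 21 for replication and 24 for mitosis, chosen for their role in the cell cycle with earlier results of these data known. Of these, 44 had a probe set paired with exactly 1 gene symbol and were measured, among 19938 genes tested. The mitotic cyclin gene Ccnb1 had none and was not analysed here.

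RNA came from cells isolated out of the tumours by the macrophage surface antigen that Adgre1 encodes. The host mice were St2-/- in 3 samples and wild type in the other 3, and each sample was run on its own Affymetrix Gene 1.0 ST array. ST2 is the receptor of the cytokine IL-33, and St2-/- names a deletion in the host, with no driver or cell type restriction given. The labels do not name the tumour, the strain, the sex or the age of the mice, nor do they tie each sample to a mouse of its own. The p-values therefore cover the spread among the 6 samples at hand, part or all of which could be technical. The deleted gene itself was not analysed here, since no probe set carries its name alone. All levels are log2 RMA values as deposited, and every difference is St2-/- minus wild type. Adgre1 itself had 11.65, 11.58 and 11.65 in St2-/- cells, against 11.31, 11.36 and 11.28 in wild type cells, a bright signal in both groups. Array medians over the genes tested were 5.81 to 5.82 in St2-/- cells and 5.88 to 5.93 in wild type cells, and arrays correlated at 0.996 to 0.998 within groups and 0.986 to 0.988 between them.

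A dividing cell copies its DNA in S phase and separates the copies in mitosis. The MCM proteins form the ring-shaped helicase that is loaded on origins of replication, and CDC45 and the GINS complex turn it into the active helicase that opens DNA ahead of the polymerases. Cyclin B with CDK1 then drives entry into mitosis, the BUB kinases hold chromosomes back until all are attached to the spindle, and the anaphase-promoting complex (APC/C) ends the arrest. E2F factors switch on many S phase genes, and the MuvB complex with B-MYB and FOXM1 switches on many mitotic genes through a promoter element called the CHR. Macrophages in mouse tissues can divide locally, and CSF1 and IL-4 are known signals for this.

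The promoter elements named above were looked up by their letters, and 5 sequences are given to show each element in genes whose values follow. RefSeq promoter windows (GRCm38.p6, 250 bases before to 50 bases after the start site) were matched by symbol for 36 of the 45 genes, in 37 windows. Searched on both strands, a CHR (TTTGAA or TTCGAA) was found in 15 of 19 mitosis windows (78.9%) and in 3 of 18 replication windows (16.7%), against 17.6% of 21263 windows of protein-coding genes. An E2F motif (TTTGGCGC, TTTGCCGC, TTTCGCGC or TTTCCCGC) was found in 1 of 19 mitosis windows (5.26%) and in 6 of 18 replication windows (33.3%), against 2.85% of all windows. A CCAAT box (CCAAT), which often stands near a CHR, was in 17 of 19 mitosis windows (89.5%) and 13 of 18 replication windows (72.2%), against 38.2% of all. A match is a description of the letters and does not show that a factor binds there. All 5 windows shown are of genes that were higher in St2-/- cells in the tests below. E2F matches also stand in Mcm6, Mcm7, Cdc6 and Pola1, which did not pass. Among mitosis genes, CHR matches also stand in Cdc20, Cdkn3, Cenpf and Mki67, which did not pass either. Cenpe, with the greatest difference, has no CHR match. The windows shown are those of Cdk1 at chr10:69352863-69353162 (minus strand), Top2a at chr11:99024140-99024439 (minus strand), Bub1 at chr2:127831810-127832109 (minus strand), Mcm3 at chr1:20820263-20820562 (minus strand) and Mcm5 at chr8:75109259-75109558 (plus strand). Each is written 5′ to 3′ on the strand of the gene, and capitals mark the CHR and E2F matches.
Cdk1: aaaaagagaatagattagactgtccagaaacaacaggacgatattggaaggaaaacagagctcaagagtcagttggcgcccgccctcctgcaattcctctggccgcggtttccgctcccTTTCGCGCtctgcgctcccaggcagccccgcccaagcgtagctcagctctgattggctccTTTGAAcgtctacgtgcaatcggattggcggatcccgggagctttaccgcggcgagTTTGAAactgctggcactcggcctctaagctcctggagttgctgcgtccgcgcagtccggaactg
Top2a: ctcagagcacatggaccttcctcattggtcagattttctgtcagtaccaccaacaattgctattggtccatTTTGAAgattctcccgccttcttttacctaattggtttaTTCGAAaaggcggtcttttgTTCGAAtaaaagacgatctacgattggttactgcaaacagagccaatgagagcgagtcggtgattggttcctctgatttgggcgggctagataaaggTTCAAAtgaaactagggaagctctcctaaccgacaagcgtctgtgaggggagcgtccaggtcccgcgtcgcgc
Bub1: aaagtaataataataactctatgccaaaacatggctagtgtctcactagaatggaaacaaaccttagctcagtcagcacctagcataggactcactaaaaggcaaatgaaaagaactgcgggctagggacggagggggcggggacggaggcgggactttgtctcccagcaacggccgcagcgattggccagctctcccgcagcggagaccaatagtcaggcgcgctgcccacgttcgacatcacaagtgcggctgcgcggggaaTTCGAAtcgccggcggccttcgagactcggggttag
Mcm3: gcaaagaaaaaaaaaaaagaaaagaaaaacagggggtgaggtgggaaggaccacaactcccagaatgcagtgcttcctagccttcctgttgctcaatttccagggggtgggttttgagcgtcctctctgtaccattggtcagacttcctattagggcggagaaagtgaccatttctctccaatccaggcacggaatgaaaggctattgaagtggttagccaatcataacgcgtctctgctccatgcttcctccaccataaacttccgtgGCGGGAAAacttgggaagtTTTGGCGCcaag
Mcm5: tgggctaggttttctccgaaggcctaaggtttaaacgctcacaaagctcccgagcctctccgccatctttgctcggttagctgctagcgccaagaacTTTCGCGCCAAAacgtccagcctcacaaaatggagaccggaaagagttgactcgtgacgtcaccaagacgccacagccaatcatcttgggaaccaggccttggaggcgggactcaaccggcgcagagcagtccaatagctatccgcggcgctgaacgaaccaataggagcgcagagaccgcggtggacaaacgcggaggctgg
Counted from the start site by their first base, the CHR matches of Cdk1 stand at -71 and -15, beside an E2F match at -131. Top2a has CHR matches at -179, -140, -120 and -23, and Bub1 has 1 at 15. Mcm3 has E2F matches at 20 and 39. In Mcm5 the matches at -153 and -149 lie on opposite strands and overlap.

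Most of these genes were higher in cells from St2-/- hosts, by small amounts. Of the 23 measured mitosis genes, 16 rose and 7 did not pass the test, and of the 21 replication genes 9 rose, 1 fell and 11 did not pass. The test was limma over all 19938 genes with Benjamini-Hochberg adjustment, and a gene was called when its adjusted p was under 0.05. Over all genes, 10.7% were called higher and 10.0% lower, and outside the dimmest 40% of genes, where all 44 genes lie, 17.2% were called higher and 13.2% lower. The shares called higher were 69.6% of the mitosis genes and 42.9% of the replication genes. The median log2 difference was 0.27 for the mitosis genes and 0.20 for the replication genes, against -0.02 over all genes tested and 0.02 over those outside the dimmest 40%. In bulk RNA, more dividing cells and more of these transcripts in each cell cannot be told apart.

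**Figure D1:**
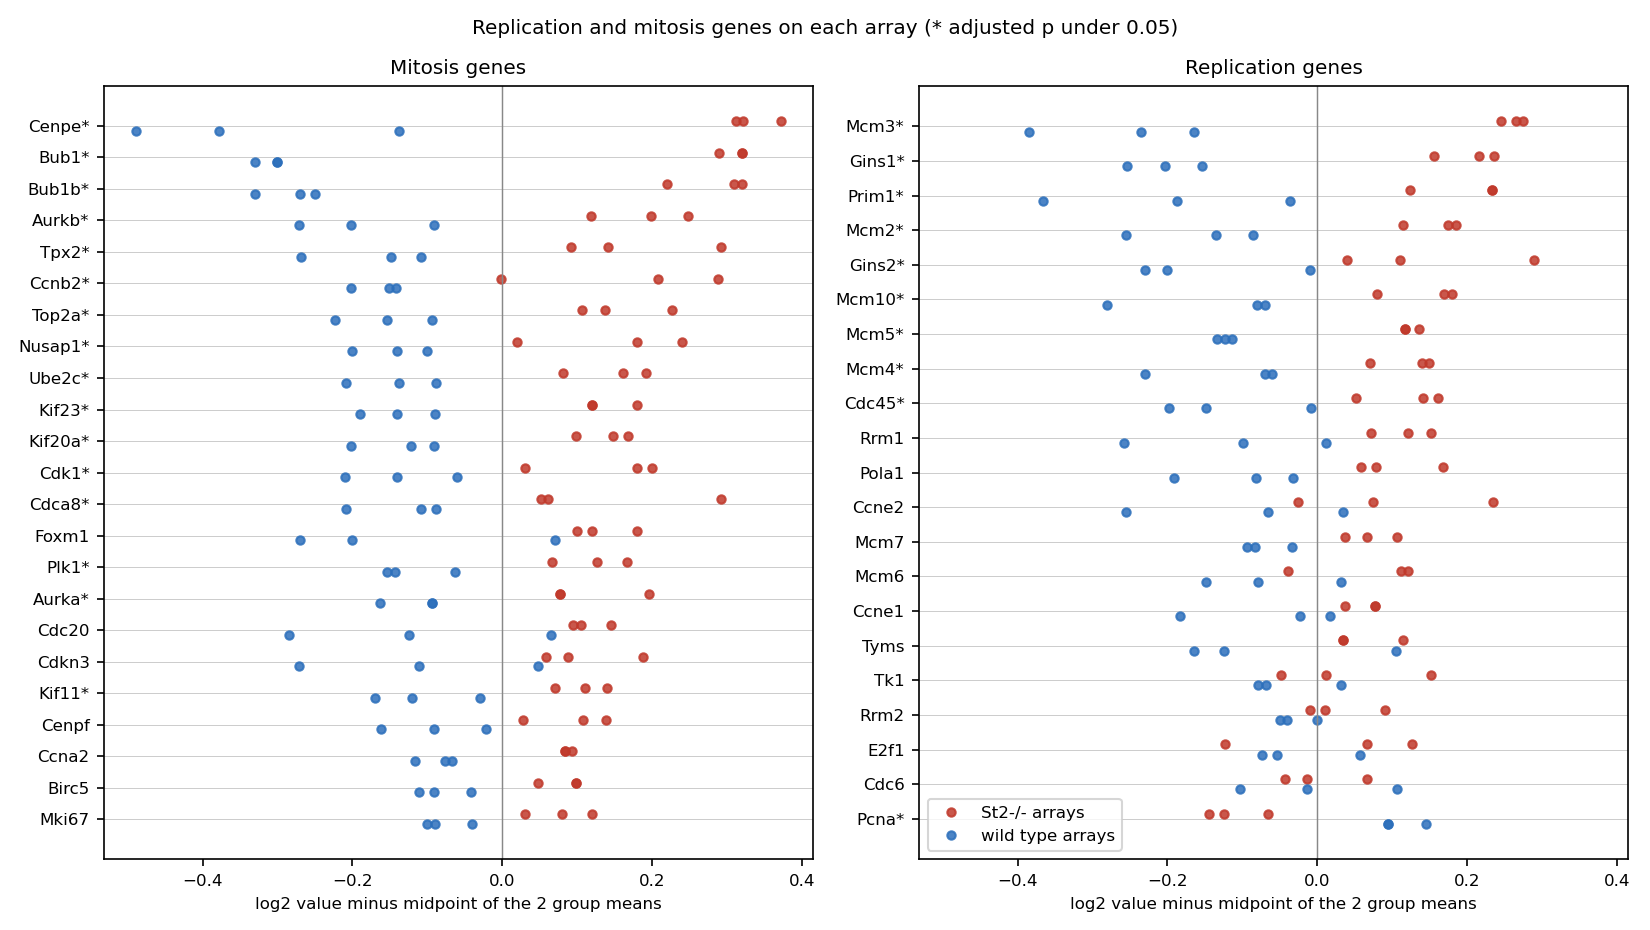
Each measured mitosis gene (left) and replication gene (right) on each array, as the log2 value minus the midpoint of the 2 group means. Red points are the 3 St2-/- arrays and blue points the 3 wild type arrays, and an asterisk marks an adjusted p under 0.05. For all 23 mitosis genes every red point lies to the right of every blue point, and for Pcna every red point lies to the left.

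All 23 mitosis genes had each St2-/- array above each wild type array, an arrangement that 18.1% of all genes tested showed. Among the replication genes 13 of 21 were arranged so and 1, Pcna, was arranged the other way, as 18.3% of all genes were. By array, the median mitosis gene stood at 0.11, 0.11 and 0.19 above its midpoint of the 2 group means in St2-/- replicates 1, 2 and 3, against -0.14, -0.09 and -0.15 in the wild type replicates. All 3 St2-/- arrays were thus above all 3 wild type arrays in this summary too. For the median replication gene the deviations were 0.12, 0.11 and 0.08 in the St2-/- replicates and -0.08, -0.07 and -0.13 in the wild type replicates. Wild type replicate 3 was the sole lowest of its group for 12 of 23 mitosis genes and 11 of 21 replication genes, against 6173 of 19938 genes overall. Among the St2-/- arrays, replicate 3 was the sole highest for 11 mitosis genes and replicate 1 for 9 replication genes.

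Of the 4 spindle checkpoint and kinetochore genes, 3 had the greatest differences of the mitosis group. Bub1, a checkpoint kinase (probe set 10487480), had values of 8.30, 8.33 and 8.33 in St2-/- cells, against 7.71, 7.71 and 7.68 in wild type cells. The arrays of each group lay within 0.03 of one another, so the log2 difference of 0.62 ± 0.06 (SE; 1.54-fold) was far wider than the spread (limma adjusted p = 6.33e-05). Bub1b, which encodes the checkpoint protein BUBR1 (probe set 10474769), had 8.50, 8.51 and 8.41 in St2-/- cells, against 7.86, 7.92 and 7.94 in wild type cells. Its groups did not overlap, and the difference was 0.57 ± 0.06 (SE; limma adjusted p = 0.000183). Cenpe, the kinetochore motor that moves chromosomes to the spindle equator (probe set 10496204), had 8.55, 8.49 and 8.50 in St2-/- cells, against 7.80, 8.04 and 7.69 in wild type cells. The wild type arrays spread more widely than the St2-/- arrays, and the difference of 0.67 ± 0.09 (SE; 1.59-fold) was the greatest of all 44 genes (limma adjusted p = 0.000578). Cenpf, a kinetochore protein gene of late cell cycle, differed by 0.18 and was not called (limma adjusted p = 0.0869).

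Of 5 genes of the mitotic kinases and the chromosomal passenger complex, 4 rose, with a median difference of 0.24. Aurkb, the kinase of that complex (probe set 10377405), had 8.53, 8.61 and 8.66 in St2-/- cells, against 8.21, 8.14 and 8.32 in wild type cells. That is a difference of 0.38 ± 0.07 (SE; limma adjusted p = 0.00486), and the groups did not overlap. Cdca8, which encodes borealin of the same complex (probe set 10516246), had 7.16, 7.15 and 7.39 in St2-/- cells, against 6.89, 7.01 and 6.99 in wild type cells. St2-/- replicate 3 stood above the other St2-/- arrays, and the difference of 0.27 was called by a narrow margin (limma adjusted p = 0.0426). Plk1 and Aurka, kinases of spindle assembly, differed by 0.24 and 0.23 and were called. Birc5, the gene of survivin, also of the passenger complex, differed by 0.16 with an adjusted p of 0.0900 in limma.

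All 5 spindle and cytokinesis genes rose. Tpx2, which targets Aurora A to the spindle (probe set 10477187), had 8.63, 8.68 and 8.83 in St2-/- cells, against 8.27, 8.39 and 8.43 in wild type cells. Its difference was 0.35 ± 0.08 (SE; limma adjusted p = 0.0102). Kif11, the motor that pushes spindle poles apart (probe set 10462796), had 8.34, 8.30 and 8.37 in St2-/- cells, against 8.20, 8.11 and 8.06 in wild type cells. The arrays of the groups were close to each other, and the difference of 0.21 had a limma adjusted p of 0.0459, the largest among the called mitosis genes. The cytokinesis motors Kif23 and Kif20a differed by 0.28 each, and Nusap1, which bundles spindle microtubules, by 0.29.

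Top2a, the topoisomerase that untangles sister chromosomes (probe set 10390707), had 9.45, 9.42 and 9.54 in St2-/- cells, against 9.22, 9.09 and 9.16 in wild type cells. Its difference was 0.31 ± 0.07 (SE; limma adjusted p = 0.00916). A further probe set of Top2a differed by 0.27 but was dim, below the median of every array. It had 3.74, 3.77 and 3.75 in St2-/- cells, against 3.41, 3.58 and 3.46 in wild type cells. Mki67, the gene of the proliferation marker Ki-67, had 10.29, 10.34 and 10.38 in St2-/- cells, against 10.22, 10.17 and 10.16 in wild type cells. Its difference was 0.15 with an unadjusted 95% interval of 0.01 to 0.29, and it was not called (limma adjusted p = 0.115). It was the smallest difference of the mitosis genes, and its values are given because the gene is widely used to mark dividing cells.

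The mitotic cyclins and their control gave 2 calls among 5 measured genes. Ccnb2, a B-type cyclin, and Cdk1, its kinase partner, rose by 0.33 and 0.27. Foxm1, the transcription factor of mitotic genes (probe set 10542079), had 7.79, 7.85 and 7.77 in St2-/- cells, against 7.74, 7.47 and 7.40 in wild type cells. Wild type replicate 1 lay close to the St2-/- arrays, and the difference of 0.27 did not pass (limma adjusted p = 0.0666). Without that array it passed (0.00953). Ccna2, the cyclin of S phase and early mitosis (probe set 10497831), had 9.41, 9.40 and 9.40 in St2-/- cells, against 9.24, 9.25 and 9.20 in wild type cells. The groups were tight and apart, but the difference was 0.17 and did not pass (limma adjusted p = 0.0673). Cdkn3, a phosphatase gene that acts on CDK1, differed by 0.22 (adjusted p = 0.106 in limma). Of the APC/C genes, the ubiquitin-conjugating enzyme gene Ube2c rose by 0.29, and the activator gene Cdc20 differed by 0.23 (adjusted p = 0.100 in limma). Ccnb2 and Aurkb have pseudogenes in RefSeq, so their probe sets may read more than 1 locus.

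Calls in the mitosis group rested on all 6 arrays to different degrees. Bub1, Bub1b, Cenpe, Aurkb, Top2a, Tpx2, Kif23 and Kif20a, 8 of the 16 called genes, kept their call under all 15 alternatives listed in the methods. Aurka and Cdca8 lost it without any 1 of the 6 arrays (limma adjusted p up to 0.129 and 0.147), and Kif11 lost it without any but wild type replicate 1 (up to 0.145). Cdk1 and Plk1 lost it without St2-/- replicate 1 or 3 or wild type replicate 1 or 3 (up to 0.0966 and 0.0899). Nusap1 lost it without St2-/- replicate 2 or 3 or wild type replicate 3 (up to 0.0874), Ccnb2 without St2-/- replicate 2 or 3 or wild type replicate 1 (up to 0.0695), and Ube2c without St2-/- replicate 3 (0.0557). Cdc20 and Cdkn3 were called only without wild type replicate 2 (0.0223 and 0.0351) or with arrays centred on their median. The number called was 8 without St2-/- replicate 3 and 10 without wild type replicate 3.

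**Figure D2:**
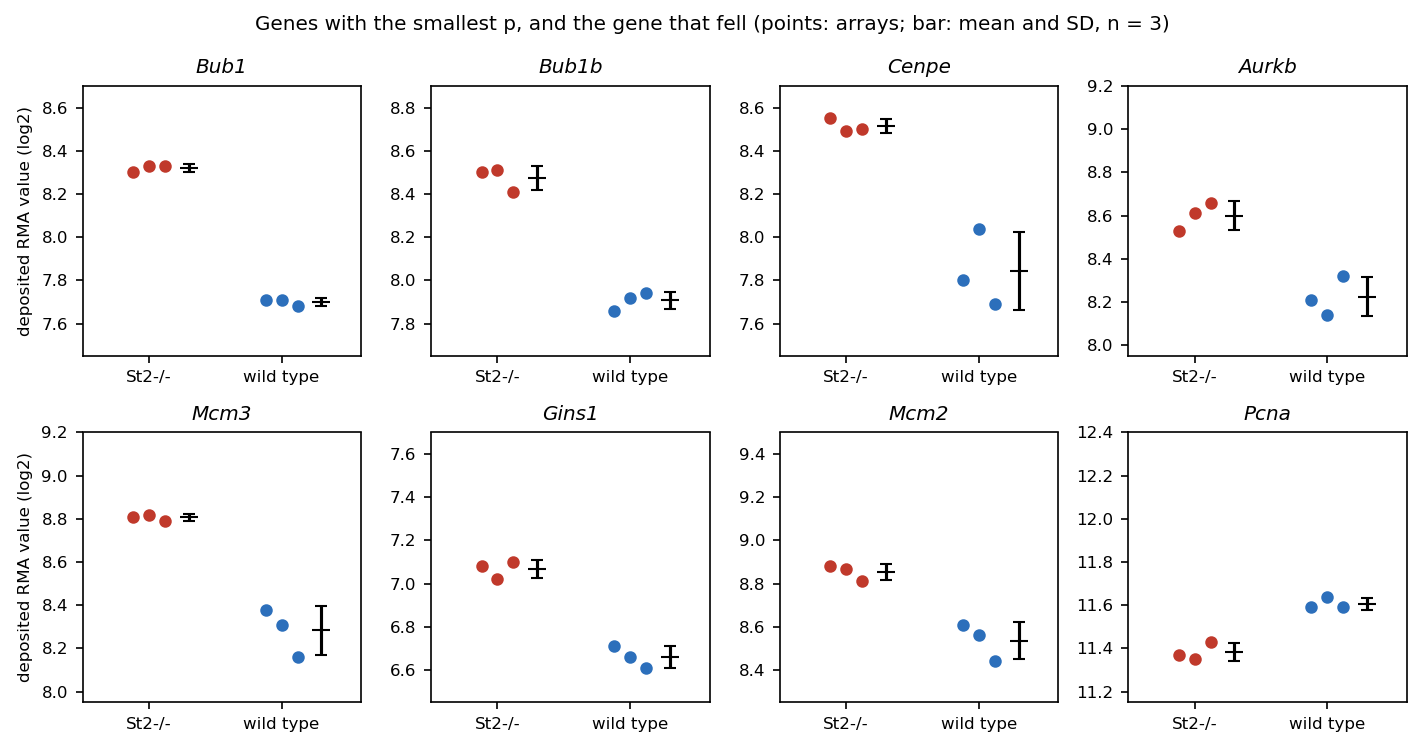
Deposited log2 RMA values on each array for 8 genes, with St2-/- arrays in red on the left and wild type arrays in blue on the right, and the mean with its SD (n = 3) beside each group. The vertical axes do not start at 0 and span the same log2 range in every panel. Bub1, Bub1b, Cenpe, Aurkb, Mcm3, Gins1 and Mcm2 were higher in St2-/- cells, and Pcna was lower.

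The helicase that opens DNA for copying held most of the calls among the replication genes. Of the 6 genes of the ring, Mcm2 to Mcm7, 4 rose. Mcm3 (probe set 10353420) had 8.81, 8.82 and 8.79 in St2-/- cells, against 8.38, 8.31 and 8.16 in wild type cells. The St2-/- arrays nearly coincided, and the difference of 0.52 ± 0.07 (SE; 1.44-fold) was the greatest of the replication genes (limma adjusted p = 0.000698). Mcm2 (probe set 10546163) had 8.88, 8.87 and 8.81 in St2-/- cells, against 8.61, 8.56 and 8.44 in wild type cells. The difference was 0.32 ± 0.07 (SE; limma adjusted p = 0.00934). Mcm5 (probe set 10572906) had 8.46, 8.44 and 8.44 in St2-/- cells, against 8.20, 8.19 and 8.21 in wild type cells. Its arrays agreed within 0.02 in each group, and the difference was 0.25 ± 0.06 (SE; limma adjusted p = 0.0148). Mcm4 rose by 0.24, and Mcm7 and Mcm6 differed by 0.14 and 0.13 and were not called (limma adjusted p = 0.142 and 0.269).

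The partners that load and start the helicase gave 4 calls among 5 genes. Gins1, a subunit of the GINS complex (probe set 10476989), had 7.08, 7.02 and 7.10 in St2-/- cells, against 6.71, 6.66 and 6.61 in wild type cells. The groups were clearly apart, with a difference of 0.41 ± 0.06 (SE; limma adjusted p = 0.00146). Mcm10, which helps to start the fork (probe set 10479811), had 7.20, 7.11 and 7.21 in St2-/- cells, against 6.95, 6.96 and 6.75 in wild type cells. Its difference was 0.29 ± 0.08 (SE; limma adjusted p = 0.0254). Gins2, another GINS subunit (probe set 10582190), had 7.14, 6.96 and 6.89 in St2-/- cells, against 6.62, 6.65 and 6.84 in wild type cells. St2-/- replicate 3 and wild type replicate 3 lay only 0.05 apart, and the difference of 0.29 was called narrowly (limma adjusted p = 0.0425). Cdc45, the third part of the active helicase (probe set 10438378), had 7.38, 7.40 and 7.29 in St2-/- cells, against 7.04, 7.09 and 7.23 in wild type cells. It too was called narrowly, with a difference of 0.24 (limma adjusted p = 0.0457). Cdc6, which loads the ring on origins, differed by 0.01 with an unadjusted 95% interval of -0.16 to 0.17.

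Primase, polymerase and clamp did not move together. Prim1, the catalytic subunit of primase (probe set 10367076), had 7.52, 7.41 and 7.52 in St2-/- cells, against 7.10, 7.25 and 6.92 in wild type cells. It rose by 0.39 ± 0.09 (SE; limma adjusted p = 0.0115). Pola1, the catalytic subunit of the polymerase that works with primase (probe set 10605674), had 7.59, 7.68 and 7.57 in St2-/- cells, against 7.43, 7.48 and 7.32 in wild type cells. The groups did not overlap, but the difference of 0.20 did not pass (limma adjusted p = 0.0678). Pcna, the sliding clamp that holds the polymerase on DNA (probe set 10487930), had 11.37, 11.35 and 11.43 in St2-/- cells, against 11.59, 11.64 and 11.59 in wild type cells. It fell, with a difference of -0.22 ± 0.06 (SE; limma adjusted p = 0.0291), and every St2-/- array lay below every wild type array. A further probe set of Pcna had 11.37, 11.35 and 11.43 in St2-/- cells, against 11.58, 11.65 and 11.58 in wild type cells. Its values were almost those of the first probe set, and RefSeq lists 2 Pcna pseudogenes, so which locus these probes read cannot be told apart. The call of Pcna was lost when arrays were centred on their median (difference -0.13, limma adjusted p = 0.180) and without any 1 of the 6 arrays (0.0514 to 0.0923).

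Enzymes that supply nucleotides and factors of S phase entry gave no calls among 7 genes. Outside the dimmest 40% of genes 17.2% were called higher and 13.2% lower, so a count this small is given as a description. Rrm1, the large subunit of ribonucleotide reductase (probe set 10555695), had 9.24, 9.29 and 9.32 in St2-/- cells, against 9.07, 9.18 and 8.91 in wild type cells. Its difference was 0.23, and it did not pass (limma adjusted p = 0.0690). Without wild type replicate 2 it did (0.0335). Rrm2, the small subunit, differed by 0.06, thymidylate synthase Tyms by 0.12 and thymidine kinase Tk1 by 0.08, each with overlapping groups. Ccne2, Ccne1 and E2f1, which drive cells into S phase, differed by 0.19, 0.13 and 0.05 (limma adjusted p = 0.196, 0.253 and 0.739). At an unadjusted p under 0.05, Rrm1 passed among these 7 genes, and 1 had a group arrangement free of overlap besides it, Ccne1. Their unadjusted 95% intervals reached 0.20 for Rrm2, 0.23 for E2f1, 0.24 for Tk1, 0.31 for Tyms, 0.29 for Ccne1 and 0.40 for Ccne2, and differences as large as those of several called genes lie within them. Whether these genes differed less than the helicase or the mitosis genes was not tested. Tyms has a pseudogene in RefSeq that its probe set may also read.

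Among the replication genes, Mcm3, Gins1, Mcm2 and Prim1, 4 of the 10 called, kept their call under all 15 alternatives. Mcm5 lost it without St2-/- replicate 1 or 3 (limma adjusted p up to 0.0522), Mcm10 without St2-/- replicate 1 or 3 or wild type replicate 3 (up to 0.0890), and Gins2 without St2-/- replicate 1 or 2 or wild type replicate 1 or 2 (up to 0.138). Mcm4 lost it without any array but wild type replicate 2 (up to 0.116), and Cdc45 without any but wild type replicate 3 (up to 0.133). The number called was 4, 6 and 5 without St2-/- replicates 1, 2 and 3, and 6 without wild type replicate 1.

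Other genes of the same machinery came from 8 lists named for their function, also chosen with earlier results of these data known. Of 163 measured genes that are not among the 44, 69 rose (42.3%), 0 fell and 94 did not pass in limma. Differences were positive for 147 and zero or negative for the others, none of which was called. At an unadjusted p under 0.05, 90 were higher and 0 lower, against 25.0% higher and 19.4% lower of all genes outside the dimmest 40%. Origin licensing and firing had 8 of 22 genes higher, with the MCM loader Cdt1 (log2 difference 0.52), the origin recognition subunit Orc6 (0.38) and the firing factor Ticrr (0.50). Polymerases, clamp loader and fork enzymes had 9 of 24 higher, with Pold4 (0.52), the clamp loader subunit Rfc2 (0.43) and the leading strand polymerase Pole (0.39). Spindle motors and cytokinesis had 17 of 25 higher, with the chromosome motor Kif4 (0.53), Spag5 (0.45) and Kif18b (0.39). Kinetochore and checkpoint had 10 of 31, with Zwilch (0.44), the scaffold Knl1 (0.40) and Cenph (0.36).

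Condensin, cohesin and chromatin had 10 of 20 higher, with the condensin II subunit Ncapg2 (0.51), the chromatin protein Hmgb2 (0.48) and the lamin Lmnb1 (0.37). DNA damage response at forks had 9 of 15 higher, with the helicase Blm (0.64), Fancd2 (0.41) and Bard1 (0.43), and Bard1 lost its call with the mean of its probe sets (limma adjusted p = 0.153). APC/C and ubiquitin control had 4 of 14 higher, with the APC/C inhibitor Fbxo5 (0.62), Cks1b (0.41) and Cdc27 (0.25), and Cdc27 lost its call without any array but wild type replicate 2 (up to 0.107). Nucleotide synthesis had 2 of 12 higher, Dck (0.39) and Rrm2b (0.44), a share of 16.7% that is close to the 17.2% of genes outside the dimmest 40%. Rrm2b lost its call without St2-/- replicate 1 or 3 or wild type replicate 1 or 3 (up to 0.0751). Medians of these lists lay between 0.09 for nucleotide synthesis and APC/C control and 0.32 for spindle genes.

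**Figure D3:**
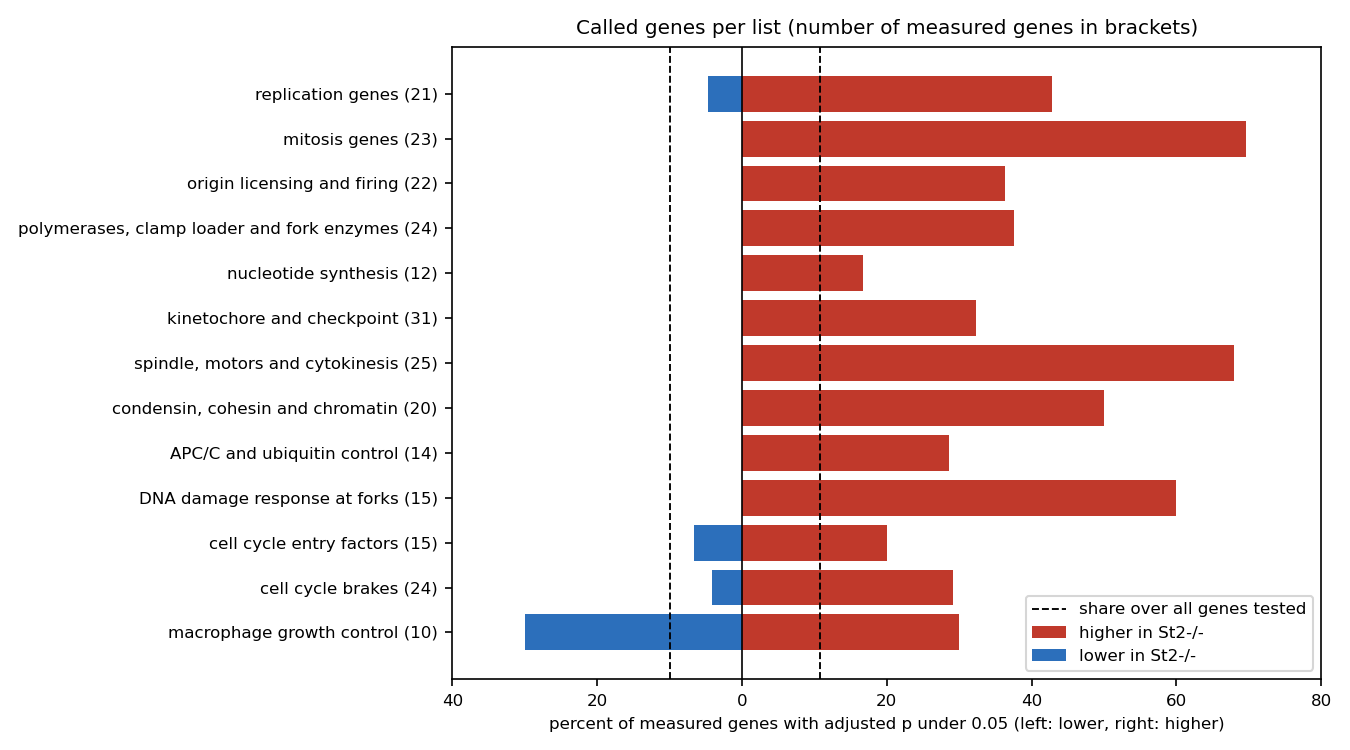
Percent of measured genes in each pathway list with a limma adjusted p under 0.05, higher in St2-/- to the right in red and lower to the left in blue, with dashed lines at the shares over all genes tested (10.7% and 10.0%). Of the 13 pathway lists drawn, mitosis (69.6%) and spindle (68.0%) genes had the largest shares higher, and nucleotide synthesis (16.7%) the smallest. Outside the dimmest 40% of genes, where most genes of these lists lie, 17.2% were called higher and 13.2% lower, shares not drawn.

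Of 15 cell cycle entry factors upstream of the machinery, 3 rose (20%) and 1 fell, close to or below the 17.2% higher and 13.2% lower of genes outside the dimmest 40%. Ccnd2, a D-type cyclin that responds to growth signals, had 9.32, 9.19 and 9.21 in St2-/- cells, against 8.29, 8.37 and 8.30 in wild type cells. Its difference of 0.92 ± 0.07 (SE; limma adjusted p = 1.07e-05) exceeded that of all 44 genes, whereas Ccnd3 fell, with a difference of -0.41. E2f2, an activating E2F, rose by 0.48. Ccnd1, Myc and Cdk4 differed by 0.10, -0.08 and -0.03 and were not called. Of 24 genes listed as brakes on the cycle, 7 rose (29.2%) and 1 fell. The 7 include Lin9 and Lin54 of the MuvB complex, named above for switching on mitotic genes, so the count is not one of restraints alone. Btg2, an antiproliferative gene, had 10.16, 10.09 and 10.10 in St2-/- cells, against 10.75, 10.74 and 10.77 in wild type cells. It fell by 0.64 on the log2 scale (limma adjusted p = 6.1e-05), while the CDK inhibitor gene Cdkn1b rose by 0.37 and Lin9, a MuvB subunit, by 0.47.

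Of 10 genes that govern macrophage growth, 3 rose and 3 fell, against the same 17.2% and 13.2%, and a count this small is given as a description. Maf, a transcription factor that restrains self-renewal of mouse macrophages, had 9.26, 9.31 and 9.36 in St2-/- cells, against 9.88, 10.01 and 9.89 in wild type cells. It fell, with a difference of -0.62 ± 0.07 (SE; limma adjusted p = 0.000147), as did the IL-4 receptor gene Il4ra (-0.52) and Il34, a ligand of the CSF1 receptor (-0.73). The genes that rose were Csf2rb, a receptor chain for GM-CSF (0.39), and the myeloid transcription factors Cebpa (0.36) and Spi1 (0.22), named after their values were seen. Spi1 lost its call under 8 of the 15 alternatives (limma adjusted p up to 0.190), among them leaving out any array but wild type replicate 3. Csf1r, the CSF1 receptor gene, differed by 0.05, and the groups overlapped. Csf1 itself differed by -0.32 and was not called (limma adjusted p = 0.0576), also with overlapping groups.

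Markers of cells other than macrophages also differed between the groups, and their part in the results above was not tested. Levels here are sums of values turned back to a linear scale, and because RMA values have no zero, no marker could be read as absent. Counts of called markers stand beside 10.7% higher and 10.0% lower over all genes tested, and the lists are small. Macrophage markers summed to 46237 to 48260 in St2-/- cells and 48769 to 49913 in wild type cells (3 of 11 higher, 2 lower), and T cell markers to 691 to 733 in St2-/- cells and 375 to 421 in wild type cells (6 of 10 higher, 0 lower, also at an unadjusted p under 0.05). NK cell markers had 303 to 382 in St2-/- cells and 135 to 140 in wild type cells (3 of 8 higher), dendritic cell markers 2968 to 3109 in St2-/- cells and 863 to 954 in wild type cells (3 of 9 higher, 2 lower), and B cell markers 297 to 320 in St2-/- cells and 204 to 226 in wild type cells (2 of 5 higher). Lower sums in St2-/- cells were found for monocyte markers (921 to 923 in St2-/- cells and 2392 to 2540 in wild type cells; 1 of 4 higher, 3 lower), fibroblast markers (887 to 964 in St2-/- cells and 3728 to 3893 in wild type cells; 1 of 7 higher, 6 lower) and neutrophil markers (501 to 516 in St2-/- cells and 560 to 600 in wild type cells; 1 of 8 higher, 3 lower). Epithelial or tumour markers summed to 729 to 767 in St2-/- cells and 779 to 865 in wild type cells (0 of 7 higher, 1 lower), endothelial markers to 635 to 648 in St2-/- cells and 481 to 594 in wild type cells (2 of 7 higher, 4 lower), and erythroid markers to 205 to 227 in St2-/- cells and 231 to 255 in wild type cells (0 of 3 higher, 1 lower). At an unadjusted p under 0.05 these last lists still had 0 epithelial and 0 erythroid markers higher. Single bright genes carried several sums. Itgax made up 68.7% to 70.4% of the dendritic cell sum in St2-/- cells and 64.5% to 69.9% in wild type cells, and the median difference of that list was -0.01. The dendritic cell sum without Itgax was still higher in St2-/- cells, at 917 to 974, against 266 to 306 in wild type cells. F13a1 made up at most 34.4% of the monocyte sum in St2-/- cells and at most 83.3% in wild type cells. Without F13a1 the monocyte sum was higher in St2-/- cells, at 605 to 617, against 421 to 454 in wild type cells. Among the markers left in that sum only Plac8 rose, by 3.18, whereas Chil3 and Ccr2 fell, with differences of -1.53 and -0.33. Without Kdr the endothelial sum was lower in St2-/- cells, at 362 to 368, against 397 to 501 in wild type cells. Csf3r made up 67.8% to 70.4% of the neutrophil sum in St2-/- cells and 41.8% to 45.5% in wild type cells. The neutrophil sum without Csf3r was 152 to 166 in St2-/- cells, against 313 to 350 in wild type cells. Klrk1 made up 45.2% to 55.7% of the NK cell sum in St2-/- cells and a smaller share in wild type cells. The NK cell sum without Klrk1 differed less, at 155 to 178 in St2-/- cells, against 117 to 122 in wild type cells. Of the 8 NK cell markers, 5 were not called. Without Cd79b the B cell sums overlapped, at 79.2 to 84.6 in St2-/- cells and 79.0 to 84.3 in wild type cells. Of the T, NK and B cell markers, 5 of 10, 6 of 8 and 4 of 5 lay among the dimmest 40% of genes.

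**Figure D4:**
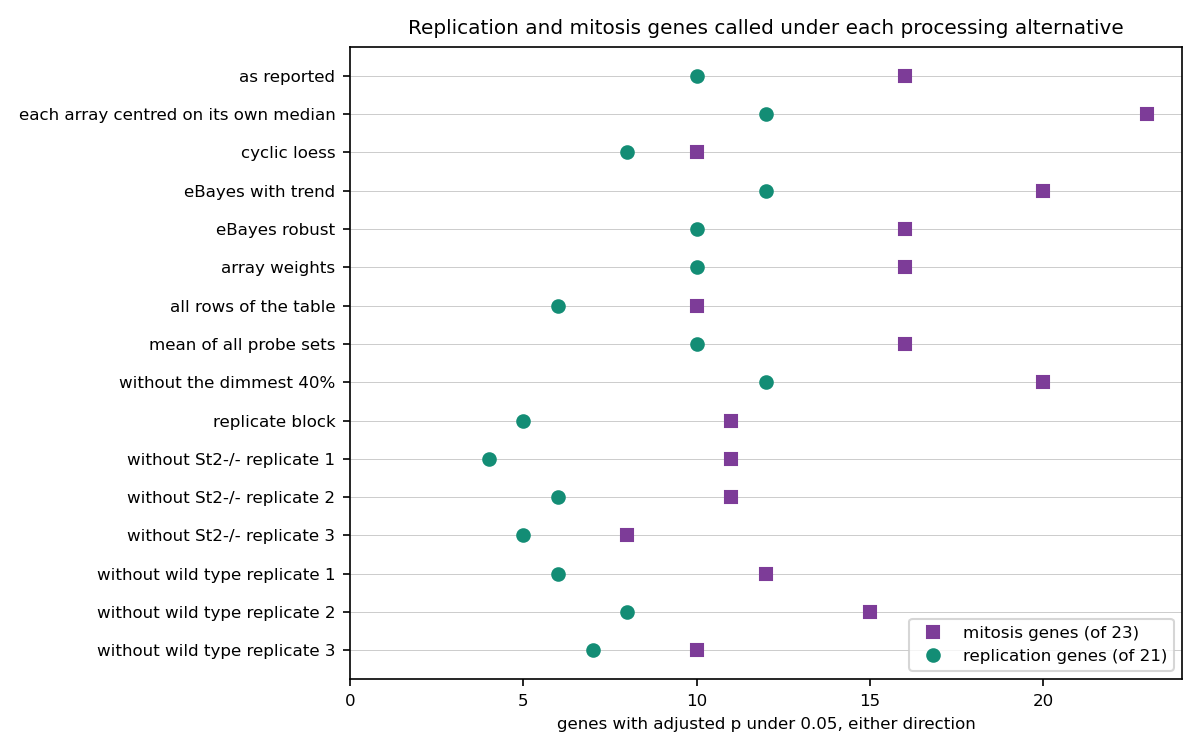
Number of mitosis genes (purple squares, of 23) and replication genes (green circles, of 21) with a limma adjusted p under 0.05 in either direction, as reported (top row, 16 and 10) and under each of the 15 alternatives. Mitosis genes ranged from 8 without St2-/- replicate 3 to 23 with arrays centred on their median, and replication genes from 4 without St2-/- replicate 1 to 12.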

How the data were processed

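Gene expression was measured on 6 arrays, 3 for St2-/- and 3 for wild type hosts, grouped by the genotype in the labels. The authors deposited RMA values, per the submitters' processing notes, and their range is that of log2 values. No RMA version was found in the labels. The number of arrays limits the precision. Of 35556 probe sets, 21789 had exactly 1 symbol in the platform annotation. The probe set with the highest mean stood for a gene, which left 19938 genes.

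Genes were fitted in R 4.3.3 with lmFit and eBayes of limma 3.58.1 (two-sided, Benjamini-Hochberg over all genes, no filter on low values). The fit was tested on simulated data. Named with values on every array were the 6 genes of each class with the smallest p, the gene called lower and the 2 genes on each side of the threshold, and from other lists up to 3 called genes with the smallest p. Mki67, Ccnd1, Myc, Cdk4, Csf1r, Csf2rb, Cebpa, Spi1, Adgre1 and the brightest markers were named outside this rule, after their values were seen. Csf1, Lin54 and Ccr2 were named outside it too. The genes and lists were chosen with earlier results of these data known.

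The 15 alternatives were centring arrays on their median, cyclic loess, a variance prior with trend or robust, array weights, a replicate block, testing every row deposited, averaging the probe sets of a gene, dropping the dimmest 40% of genes, and leaving out each of the 6 arrays. The promoter search used the windows and letters given above. The labels give no batch or scan date.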

Additional observations from a re-analysis of the deposited data

How the results depend on the processing

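Higher calls were 51.7% of 4140 calls over all genes (2142 higher, 1998 lower) and 74.0% after each array was centred on its median (3686 and 1294). The median difference over all genes, -0.02 as reported, was 0.067 after centring, 0.0037 after cyclic loess and 0.02 without the dimmest 40%. After centring, all 23 mitosis genes were called higher, and 12 replication genes, with Pcna no longer called. The median difference of mitosis genes was then 0.36 and that of replication genes 0.29, against 0.22 and 0.17 after cyclic loess. Cyclic loess left 10 mitosis genes called. With all rows of the table tested, 10 mitosis and 6 replication genes were called, over 35556 rows. With the replicate block, 11 mitosis and 5 replication genes were called. Same-numbered arrays did not deviate together (correlations of deviations 0.01, -0.01 and -0.05), and differently numbered arrays gave -0.06 to 0.07. The labels do not say whether same-numbered samples were paired, and these correlations cannot settle it. Leaving out 1 array at a time gave 8 to 15 mitosis genes and 4 to 8 replication genes called, medians of 0.25 to 0.30 and 0.16 to 0.24, and 2887 to 3852 genes called over all; the residual spread is then estimated from fewer arrays. Of the other machinery genes, 48 to 61 were called without 1 array, an alternative added after seeing the data, with 0 lower in each. No mitosis gene changed sign under any alternative. Among replication genes, all uncalled, Cdc6 turned to -0.025 without St2-/- replicate 1 and -0.043 without wild type replicate 2 (range without 1 array -0.043 to 0.062), E2f1 to -0.005 without St2-/- replicate 3 (-0.005 to 0.12), and Rrm2 to -0.0030 after cyclic loess. Values at this scale carry 2 decimals, and no detection call was used, so signal over background was not assessed.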
